A study of Mus musculus with 34 samples.

Results

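The DNA replication machinery was followed through 46 listed genes of origin licensing, the replication fork and nucleotide supply in livers of mouse fetuses that lacked combinations of the retinoblastoma (pocket) proteins. The members were taken from the list by name, each on its brightest probe set. All 46 of the 46 had a probe set, out of 18193 genes with a single named probe set or more on the array, and all 46 passed the filter on low signal (100 or more on 2 or more arrays), as did 12723 genes in all.

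A cell copies its DNA once per division. The origin recognition complex marks the start sites, Cdc6 and Cdt1 load the MCM helicase there, and Cdc45 and the GINS complex switch the helicase on. Primase and DNA polymerases then extend the strands on the Pcna clamp, single-stranded DNA is coated by replication protein A, and ribonucleotide reductase supplies the nucleotides. Many of these genes are textbook targets of E2F transcription factors, which are bound and restrained by the pocket proteins Rb1, p107 (encoded by Rbl1) and p130 (encoded by Rbl2). The fetal liver at this stage is the main site of blood formation and is filled with dividing red cell precursors.

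RNA came from whole, unfractionated and untreated fetal livers, each hybridised to 1 of 34 one-colour arrays. The labels give embryonic day 14.5 throughout, while the series design gives days 13.5 to 14.5. The 8 genotypes were wild type (2 arrays), p107 KO (1), p130 KO (3), p107;p130 DKO (the double knockout, 6), Rb1 KO (2), Rb1;p107 DKO (5), Rb1;p130 DKO (9) and Rb1;p107;p130 TKO (the triple knockout, 6). The labels name no strain, allele, Cre driver or pooling. They do not say whether the arrays of a genotype are separate animals, so the spread behind each p-value is that between these samples and may be technical. In all, 22 arrays lacked Rb1 and 12 carried it, 18 lacked p107 and 24 lacked p130.

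Rb1 signal ran from 756.0 to 1746 on the arrays labelled as lacking it and from 5208 to 9085 on those carrying it, Rbl1 from 43.9 to 139.4 against 1185 to 2713, and Rbl2 from 105.5 to 265.4 against 246.2 to 481.3. The median signal per array lay between 80.6 and 115.9. How the probe sets of a gene compare with each other split the arrays into 3 groups of 15, 10 and 9, called array groups here; they were inferred from the signals, with the members left out, and are not a recorded batch. Array groups were spread unevenly over the genotypes, and only 2 of the 9 arrays of array group 3 carried Rb1. Red cell precursor and hepatocyte markers were present in every genotype, except that 1 of the 7 red cell precursor markers with a probe set was below 100 on all arrays. Their summed signals ran from 88606 to 142287 and from 104545 to 176401 without Rb1, and from 88360 to 139589 and from 103420 to 170003 with it. Xist was detected on 17 arrays and Y-linked genes on the other 17, spread unevenly over the genotypes. Xist arrays and Y arrays numbered 3 and 0 in p130 KO, 1 and 5 in p107;p130 DKO, 0 and 2 in Rb1 KO, and 4 and 2 in the triple knockout. Contrasts between such genotypes therefore also differ in sex.

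Loss of Rb1 was compared over all backgrounds, in 1 fit that also held terms for the other pocket proteins. Of the 46 replication genes, 1 rose and 0 fell at an adjusted p under 0.05 (limma, Benjamini-Hochberg over all genes tested). Across all genes tested 2.26% were called, 1.75% higher and 0.511% lower. At an unadjusted p under 0.05 there were 12 members higher and 0 lower, beside 11.3% of all genes in either direction, and 13 higher and 2 lower with the array group block (16.7% of all genes). The median log2 change of the members was 0.04, and that of all genes was -0.02. Changes ran from -0.16 for Pold1, the catalytic subunit of DNA polymerase delta, to 0.26 for Pola1, that of DNA polymerase alpha, and 29 of 46 lay above 0. The Pold1 value is from a probe set with an x in its suffix, which marks probes shared with other sequences. Its second probe set, nearly as bright, gave -0.05 ± 0.08. The brightest probe sets of Rrm2, Mcm5 and Fen1 carry the same suffix. The changes were small. Without the block, the 95% confidence interval of all 46 members lay within 1.5-fold in either direction. This held for 11667 of the 12723 genes. The intervals rest on the spread between these samples, which may be technical. In these bulk samples, fewer cells of a type and less RNA per cell cannot be told apart.

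**Figure D1:**
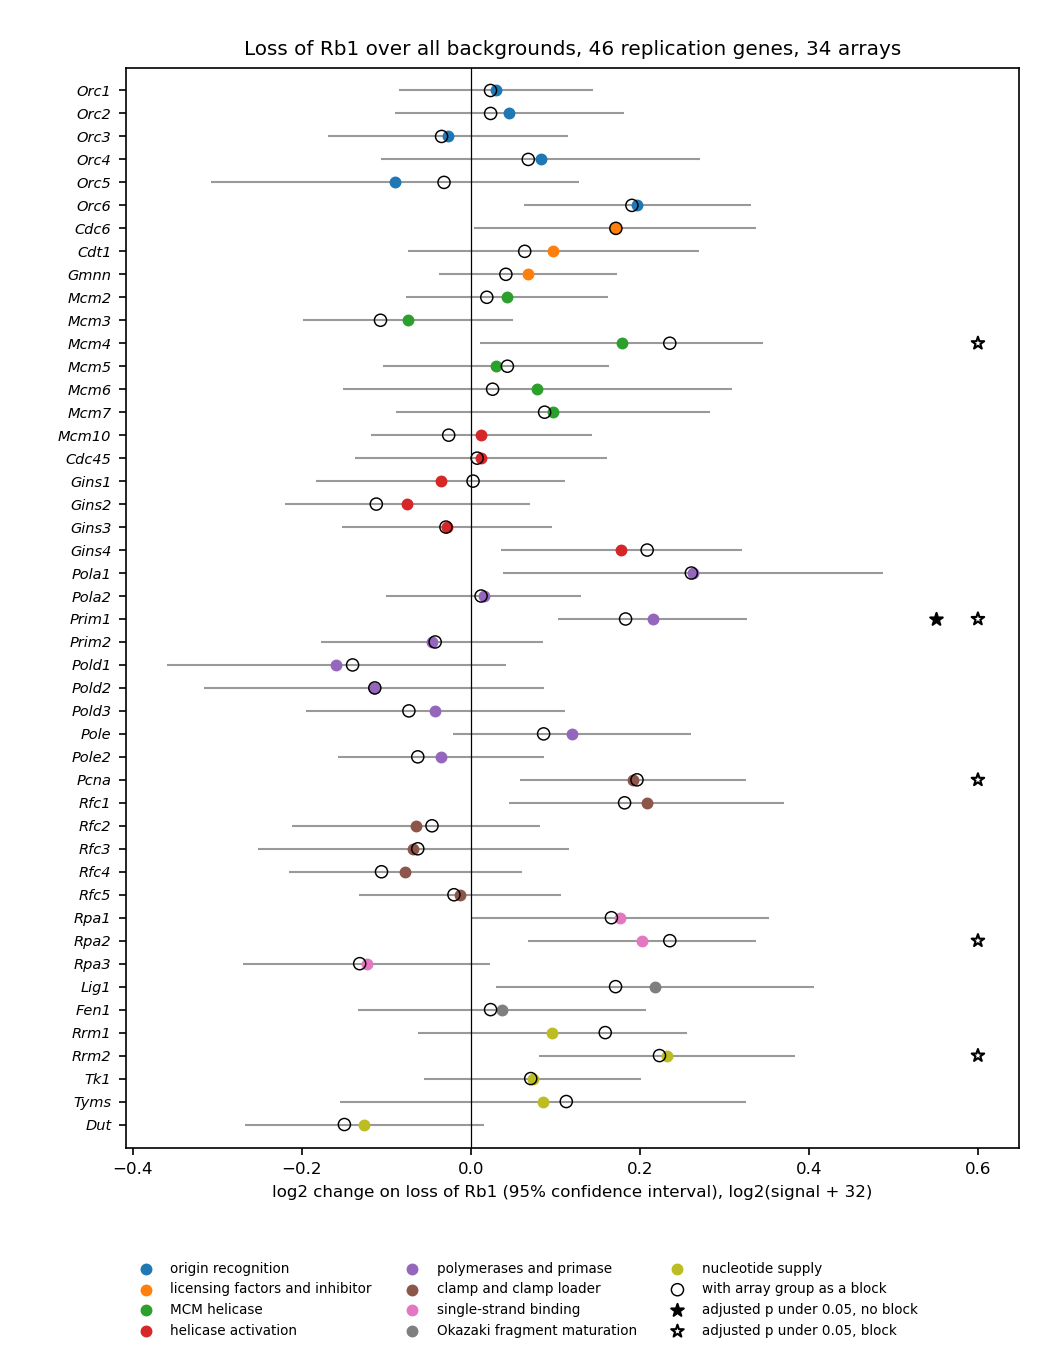
Log2 change of each of the 46 replication genes on loss of Rb1 over all backgrounds (x axis, log2(signal + 32), grey lines the 95% confidence interval), coloured by role, with the same change under an array group block as open circles. Changes span -0.16 to 0.26, and the stars mark 1 gene past an adjusted p of 0.05 without the block and 5 with it.

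Prim1, the catalytic subunit of the primase that lays down RNA primers, was the called member. Its signal was 5759 and 5904 in wild type, 5356 in p107 KO and 4978, 5519 and 7503 in p130 KO. In p107;p130 DKO the lowest, median and highest values were 5528, 6031 and 6899. Among genotypes without Rb1 it was 6049.6 and 6087 in Rb1 KO, and 6623, 6632, 6877, 7440.0 and 7464 in Rb1;p107 DKO. In Rb1;p130 DKO the lowest, median and highest values were 6124, 6655 and 7932, and in the triple knockout 6232, 7100 and 7668. All 22 arrays without Rb1 lay above the mean log2 signal of those with it, but the groups overlapped, since 3 of the 22 lay above the highest array with Rb1, p130 KO replicate 3. The log2 change was 0.22 ± 0.06 (SE, n = 22 against 12 arrays), a 1.16-fold rise (limma, adjusted p = 0.0248). Within array group 1 all 9 arrays without Rb1 (6049.6 to 6655) exceeded all 6 with it (4978 to 5876), and in array group 2 this held for 5 of 6. In array group 3 the change was 0.02, with 7 arrays against 2. A second, dimmer Prim1 probe set gave 0.24 ± 0.13 with more scatter (1986 to 8155 without Rb1, 1818 to 6290 with it) and was not called (limma, adjusted p = 0.597). The Prim1 call was lost on leaving out any 1 of 5 arrays with Rb1 (p107 KO replicate 1, p130 KO replicates 1 and 2, p107;p130 DKO replicates 2 and 3), with adjusted p between 0.00320 and 0.0645 (limma) over the 34 arrays left out in turn.

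Rrm2, the small subunit of ribonucleotide reductase that is made in S phase, showed the widest separation, though not on the probe set that represented it. The brightest Rrm2 probe set, whose name (an x in its suffix) marks probes shared with other sequences, ran from 22892 to 35910 with a median of 26636 without Rb1 and from 19876 to 29673 with a median of 23425 with it. Those ranges overlapped, and the log2 change of 0.23 ± 0.07 was not called (limma, adjusted p = 0.111). The second probe set ran from 13543 to 20546 without Rb1 (median 16532) and from 11013 to 15190 with it (median 13518). On this probe set 20 of 22 arrays without Rb1 lay above the highest array with it, the exceptions being Rb1;p107 DKO replicate 3 and Rb1;p130 DKO replicate 7. By genotype its values were 13567 and 13742 in wild type, 11013 in p107 KO, and 13266, 14408 and 15190 in p130 KO. They were 16177 and 16752 in Rb1 KO. The median was 13273 in p107;p130 DKO (11686 to 14011) against 17164 in the triple knockout (15328 to 20546), without overlap. The third probe set ran from 9828 to 14697 without Rb1 (median 11990) and from 7309 to 10186 with it (median 9293), and 21 of 22 arrays lay above the highest with Rb1.

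In the same fit over every probe set tested, the log2 changes of these Rrm2 probe sets were 0.33 ± 0.05 (limma, adjusted p = 5.57e-05) and 0.38 ± 0.06 (adjusted p = 4.85e-05), where 1.73% of 28005 probe sets were called. With array group as a block the values were 0.35 and 0.39 (limma, adjusted p = 5.17e-06 and 1.03e-05), beside 3.41% of probe sets. Both calls held on leaving out each of the 34 arrays in turn, with adjusted p up to 2.60e-04 and 2.13e-04. Within array groups 1 and 2 every array without Rb1 (9 and 6) exceeded every array with it (6 and 4) on all 3 Rrm2 probe sets. In array group 3 it held for 2 of 7 arrays on probe set 1, with a log2 change of 0.02 (limma, adjusted p = 0.974), and for 6 of 7 on probe sets 2 and 3, with log2 changes of 0.30 and 0.31 that were not called within that group (limma, adjusted p = 0.584 and 0.595). These probe sets were singled out after their values were seen. Of the 50 further probe sets that 33 members had, 35 moved in the direction of the brightest, and those of Rrm2 were the 2 called. With the array group block 4 were called, those of Rrm2, the second of Fen1 and a dim one of Rrm1.

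**Figure D2:**
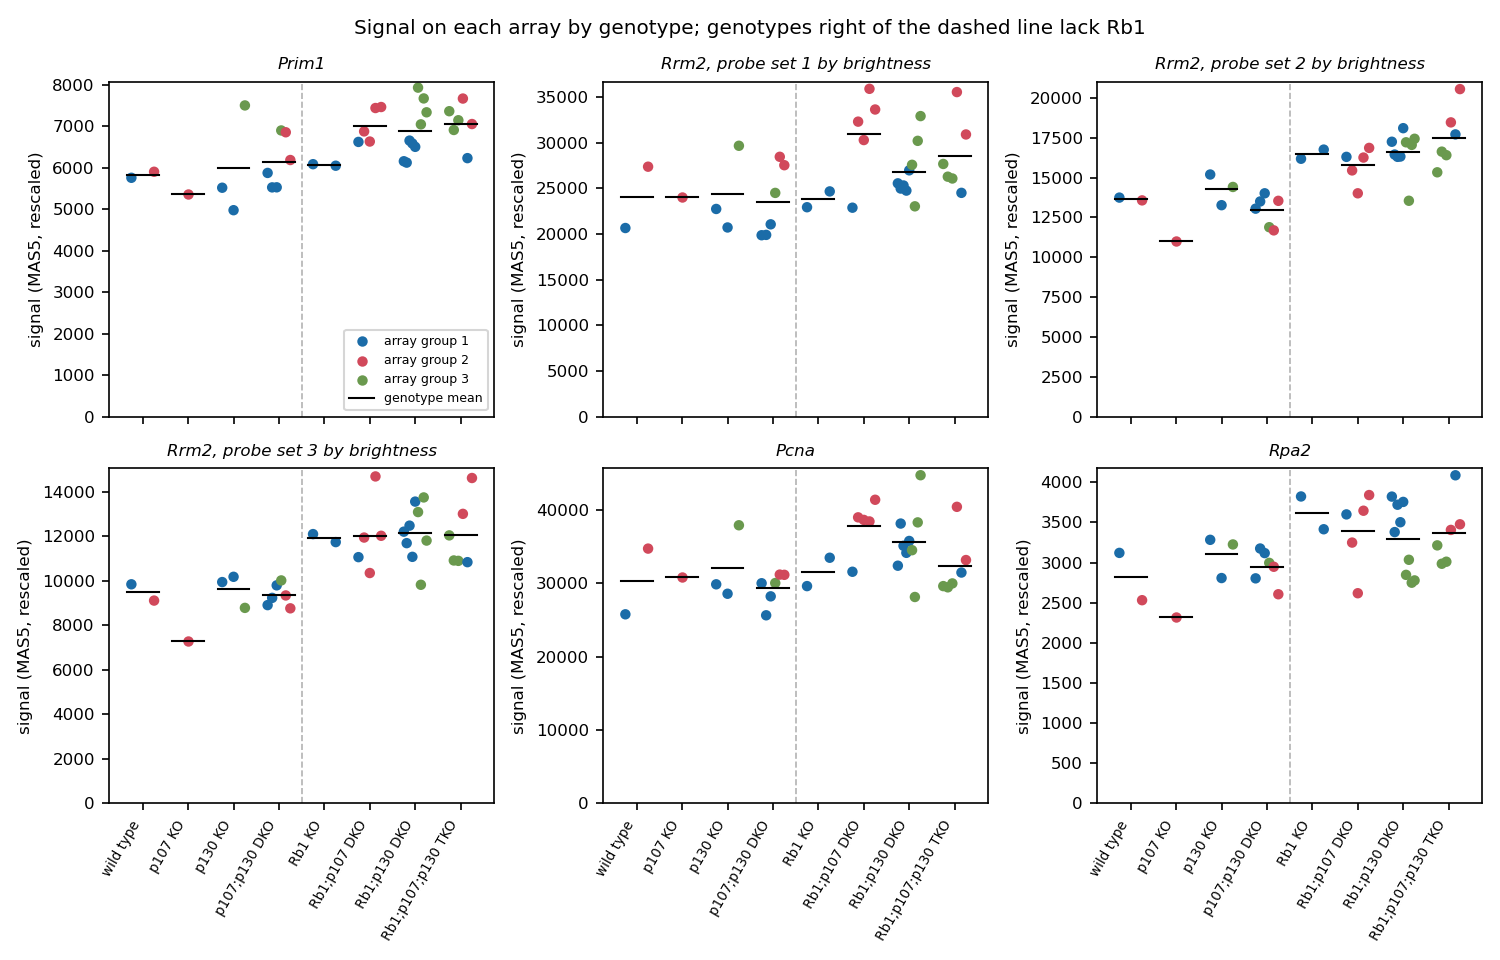
Signal of Prim1, the 3 Rrm2 probe sets, Pcna and Rpa2 on each array (y axis, rescaled MAS5 signal from 0) by genotype, with points coloured by array group and black lines at the genotype mean. On Rrm2 probe sets 2 and 3, 20 and 21 of the 22 arrays right of the dashed line (without Rb1) lie above every array left of it, while Prim1, Pcna and Rpa2 overlap.

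With array group as a block, 5 members were called, all higher, beside 4.4% of all genes (2.99% higher and 1.41% lower). They were Prim1 at 0.18 (limma, adjusted p = 0.00433), Rrm2 at 0.22 (0.00147), Rpa2 at 0.24 (0.00740), Pcna at 0.20 (0.0296) and Mcm4 at 0.24 (0.0406). On second probe sets the block gave 0.01 for Mcm4 (limma over probe sets, adjusted p = 0.957), 0.18 for Rpa2 (0.0658) and 0.32 for Prim1 (0.153). None of these was called, while the further probe sets of Rrm2 were. The block also raised the count over all genes, from 288 to 560. In fits within an array group, those called in array group 1 were Pcna, Rrm2 and Rpa2 (3 of 46, beside 1.57% of all genes), in array group 2 Gins4 (1, beside 1.48%), and in array group 3 there were 0 (0.0314% of all genes).

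Promoter sequences from RefSeq (GRCm38.p6, 250 bases before to 50 after the start of transcription, the first start listed per gene) were found for 38 of the 46 members. Mcm4, Gins1, Gins2, Gins4, Gmnn, Pole, Prim2 and Rfc2 had no entry. They were searched on both strands for E2F sites spelled TTTCCCGC, TTTCGCGC, TTTGCCGC or TTTGGCGC, for the CCAAT box (CCAAT) and for the cell cycle homology region, CHR (TTTGAA or TTCGAA), and overlapping matches were counted separately. An E2F spelling was present in 14 of 38 member promoters (36.8%) and in 2.32% of the 27025 promoters of all genes. The CCAAT box was present in 22 (57.9%, against 37.9%) and the CHR in 6 (15.8%, against 19.4%). Among MCM subunits 4 of the 5 with an entry held an E2F spelling. Lig1 and Orc4 had 3 listed starts each, and Orc2, Mcm7, Pold2 and Fen1 had 2. The first alone was searched, so a match near another start would be missed.

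The promoters shown are those of the member with the largest test statistic in each role, where an entry exists, and of Mcm6 and Mcm5, picked after the search as those with the most E2F matches before the start. Each is the 200 bases before the start, 5′ to 3′ on the gene's strand, with matches to the E2F and CCAAT spellings of either strand in capitals.
Orc6: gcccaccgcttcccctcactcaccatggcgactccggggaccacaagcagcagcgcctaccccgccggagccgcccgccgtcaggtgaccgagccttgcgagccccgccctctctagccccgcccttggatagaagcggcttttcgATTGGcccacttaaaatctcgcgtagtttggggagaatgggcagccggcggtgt
Cdc6: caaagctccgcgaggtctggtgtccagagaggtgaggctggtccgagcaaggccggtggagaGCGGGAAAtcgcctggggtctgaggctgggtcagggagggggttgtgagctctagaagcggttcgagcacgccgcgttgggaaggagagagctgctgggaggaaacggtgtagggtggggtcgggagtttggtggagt
Prim1: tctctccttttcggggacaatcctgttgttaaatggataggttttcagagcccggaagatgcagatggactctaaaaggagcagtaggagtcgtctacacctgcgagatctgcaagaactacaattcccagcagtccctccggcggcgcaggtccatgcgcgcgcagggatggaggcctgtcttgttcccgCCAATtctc
Pcna: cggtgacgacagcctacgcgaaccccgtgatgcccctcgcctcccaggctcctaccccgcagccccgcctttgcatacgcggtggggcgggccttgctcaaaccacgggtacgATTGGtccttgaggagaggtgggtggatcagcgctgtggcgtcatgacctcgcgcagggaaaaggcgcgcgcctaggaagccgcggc
Rpa2: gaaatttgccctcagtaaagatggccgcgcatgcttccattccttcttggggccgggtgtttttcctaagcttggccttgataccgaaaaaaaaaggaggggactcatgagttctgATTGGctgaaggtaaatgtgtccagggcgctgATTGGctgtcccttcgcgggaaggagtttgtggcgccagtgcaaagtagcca
Lig1: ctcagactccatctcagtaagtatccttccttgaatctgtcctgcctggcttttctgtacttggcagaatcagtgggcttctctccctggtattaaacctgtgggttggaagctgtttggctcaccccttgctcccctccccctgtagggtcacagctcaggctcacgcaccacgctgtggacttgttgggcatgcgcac
Rrm2: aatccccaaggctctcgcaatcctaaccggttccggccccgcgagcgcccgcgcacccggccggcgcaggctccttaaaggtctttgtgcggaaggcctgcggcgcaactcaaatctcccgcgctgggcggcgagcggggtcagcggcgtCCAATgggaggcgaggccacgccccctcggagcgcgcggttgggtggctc
Mcm6: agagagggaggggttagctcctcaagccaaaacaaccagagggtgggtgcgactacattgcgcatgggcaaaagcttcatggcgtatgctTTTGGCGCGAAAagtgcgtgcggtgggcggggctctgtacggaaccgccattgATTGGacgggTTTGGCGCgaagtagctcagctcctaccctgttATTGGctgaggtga
Mcm5: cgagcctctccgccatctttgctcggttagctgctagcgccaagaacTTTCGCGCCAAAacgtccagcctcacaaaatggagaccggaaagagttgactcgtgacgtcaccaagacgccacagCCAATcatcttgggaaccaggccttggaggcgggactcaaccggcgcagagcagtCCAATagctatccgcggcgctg
The windows are chr8:85299432-85299631 on the plus strand, chr11:98907951-98908150 on the plus strand, chr10:128015015-128015214 on the plus strand, chr2:132253181-132253380 on the minus strand, chr4:132768160-132768359 on the plus strand, chr7:13276975-13277174 on the plus strand, chr12:24708054-24708253 on the plus strand, chr1:128359706-128359905 on the minus strand and chr8:75109309-75109508 on the plus strand, in that order. Prim1, Pcna, Rpa2 and Rrm2, which were called with the block, show CCAAT letters and no E2F spelling. Mcm4, also called with it, had no entry. Orc6 shows 1 CCAAT box, Cdc6 shows 1 E2F spelling, Lig1 shows neither, and Mcm6 and Mcm5, whose changes were 0.08 ± 0.11 and 0.03 ± 0.07, show overlapping pairs of E2F matches. On their second probe sets Mcm6 and Mcm5 gave 0.11 ± 0.07 and 0.13 ± 0.06, not called. Across the 38 members the median change on Rb1 loss was 0.001 for the 14 with an E2F spelling and 0.06 for the 24 without, and 2 and 8 of them had an unadjusted p under 0.05. These are letters in a fixed window and not measured binding.

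**Figure D3:**
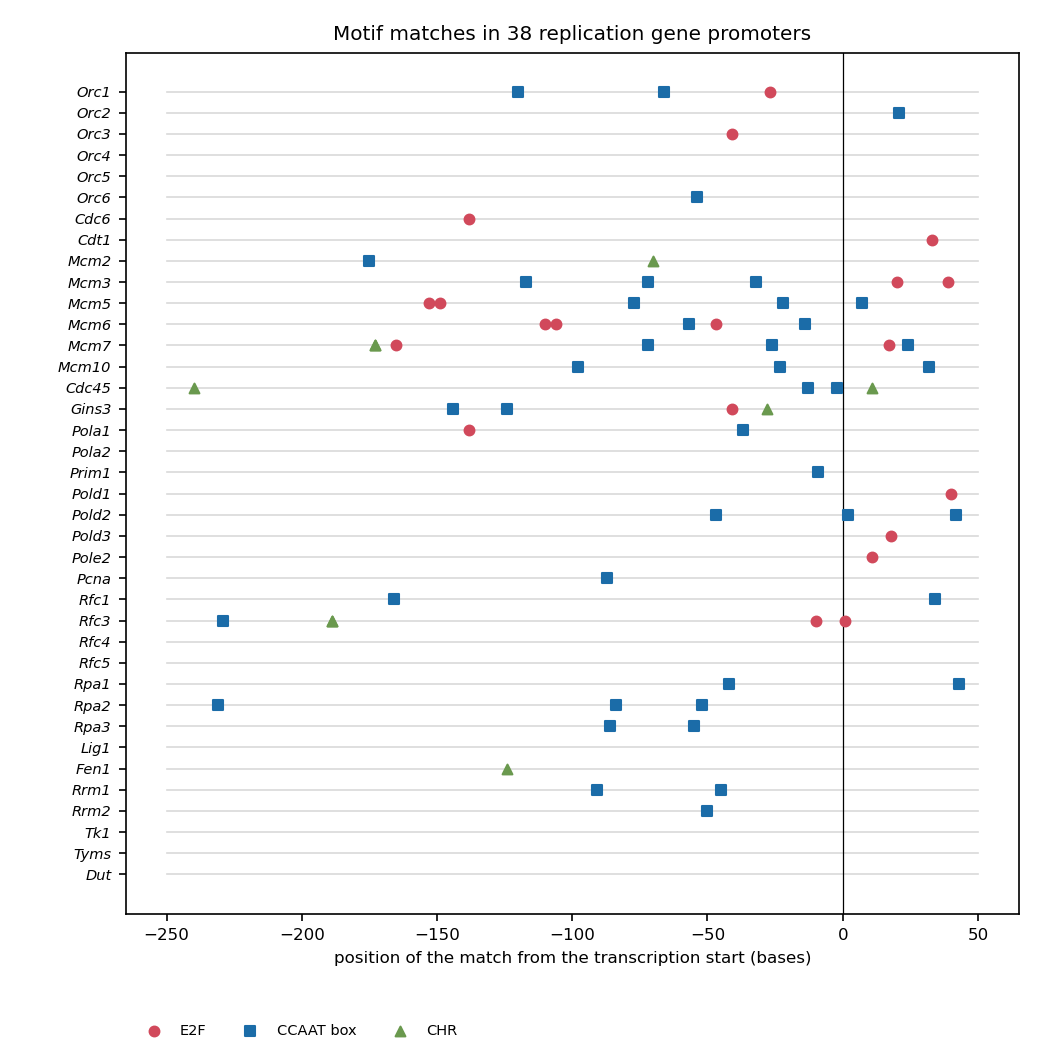
Start of each E2F, CCAAT box and CHR match (x axis, bases from the start of transcription at the black line) in the 38 member promoters (rows). E2F spellings lie between -165 and 40 in 14 promoters, and CCAAT boxes occur in 22.

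Among the origin recognition genes 0 of 6 were called. Orc6, the smallest subunit of the complex, ran from 1414 to 2288 without Rb1 (median 1905) and from 1329 to 2071 with it (median 1682). Its log2 change of 0.20 ± 0.07 was not called (limma, adjusted p = 0.143), and 6 of 22 arrays exceeded the highest with Rb1. Orc4 gave 0.08 ± 0.09. The other 4 members, Orc1, Orc2, Orc3 and Orc5, lay between -0.09 and 0.05.

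Of the licensing genes 0 of 3 were called. Cdc6, which recruits the helicase to origins, had a median of 6657 without Rb1 (5902 to 10087) and 6442 with it (4999.9 to 8142), a log2 change of 0.17 ± 0.08 (limma, adjusted p = 0.427). Its highest genotype median was that of Rb1;p107 DKO, 9256, where replicate 1 at 5919 stood below the other 4 arrays, and triple knockout replicate 4 reached 9771. Gmnn, the inhibitor of Cdt1, gave 0.07 ± 0.05 and Cdt1 by 0.10 ± 0.09, neither called.

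Of the 6 subunits of the MCM helicase, Mcm2 to Mcm7, 0 were called without the block. Mcm4 had a median of 10871 without Rb1 (6559 to 13526) and 9261 with it (7854 to 12446), with 3 of 22 arrays above the highest with Rb1. The log2 change was 0.18 ± 0.08 (limma, adjusted p = 0.396), and the second Mcm4 probe set gave 0.05 ± 0.08. Mcm3 gave -0.07 ± 0.06 on its brightest probe set (limma, adjusted p = 0.737), and its dimmer probe sets gave values from -0.03 to 0.14. The other 4 subunits lay between 0.03 and 0.10.

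Helicase activation genes numbered 0 of 6 called. Gins4, a GINS subunit, ran from 2630 to 4783 without Rb1 (median 3539) and from 2567 to 3639 with it (median 3106), a log2 change of 0.18 ± 0.07 (limma, adjusted p = 0.267), and 7 of 22 arrays exceeded the highest with Rb1. Gins2, of the same complex, gave -0.08 ± 0.07. Mcm10, Cdc45, Gins1 and Gins3 lay within 0.04 of 0.

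Among the 9 polymerase and primase genes Prim1 was the 1 called, and the median change of the group was -0.04. Prim2, the regulatory primase subunit that pairs with Prim1, gave -0.05 ± 0.06. Pola1, whose point estimate was the highest of all members, ran from 982.1 to 2516 without Rb1 (median 1580) and from 1087 to 1945 with it (median 1327). Its change of 0.26 ± 0.11 was not called (limma, unadjusted p = 0.0229, adjusted p = 0.314). Pole, the catalytic subunit of polymerase epsilon, gave 0.12 ± 0.07 and Pole2 -0.04 ± 0.06.

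Of the clamp and clamp loader genes, 0 of 6 were called without the block. Pcna, the sliding clamp, ran from 28148 to 44752 without Rb1 (median 34349) and from 25652 to 37928 with it (median 30035), and 8 of 22 arrays lay above the highest with Rb1. Its log2 change was 0.19 ± 0.07 (limma, adjusted p = 0.157). Within array groups 1 and 2, 8 of 9 and 5 of 6 arrays exceeded the highest with Rb1, while in array group 3 the change was -0.05. Rfc1, the large subunit of the clamp loader, gave 0.21 ± 0.08 (limma, adjusted p = 0.245), and its dimmer probe sets 0.08 ± 0.09 and -0.04 ± 0.15. The smaller loader subunits Rfc2 to Rfc5 lay between -0.08 and -0.01.

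In replication protein A, 0 of 3 subunits were called without the block. Rpa2 ran from 2618 to 4087 without Rb1 (median 3411) and from 2326 to 3283 with it (median 2972), with 13 of 22 arrays above the highest with Rb1. Its log2 change was 0.20 ± 0.07 (limma, adjusted p = 0.128), and a second probe set gave 0.21 (limma, adjusted p = 0.0779). Within array group 1 all 9 arrays without Rb1 exceeded all 6 with it, and in array group 3 the change was -0.07, with 0 of 7 arrays above the highest with Rb1. On the second probe set all 7 arrays without Rb1 in array group 3 (3046 to 4409) exceeded both with it (2779 and 2982), so the probe sets disagreed there. Rpa1 gave 0.18 ± 0.09 (limma, adjusted p = 0.439) and Rpa3 -0.12 ± 0.07.

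Okazaki fragment maturation had 0 of 2 called. Lig1, the ligase that joins lagging strand fragments, had a median of 8511 without Rb1 (6748 to 12283) and 7521 with it (5301 to 10940.4), a log2 change of 0.22 ± 0.09 (limma, adjusted p = 0.323). Fen1, the flap endonuclease, gave 0.04 ± 0.08 on its brightest probe set and 0.15 ± 0.05 on its second (limma, adjusted p = 0.156 over probe sets). That second probe set was called with the array group block (0.16, adjusted p = 0.0423). Besides Rrm2, the nucleotide supply genes were Rrm1, the large subunit of the reductase, at 0.10 ± 0.08, thymidine kinase Tk1 at 0.07 ± 0.06, thymidylate synthase Tyms at 0.09 ± 0.12 and the dUTPase gene Dut at -0.13 ± 0.07, with 0 of these 4 called.

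Loss of p107 and of p130 called 0 replication genes. For p107 loss over all backgrounds, which has 18 arrays without p107, 1.14% of all genes were called, 6 members were higher and 0 lower at an unadjusted p under 0.05 (17% of all genes), and the median was 0.06. Pold1 gave the largest value, 0.29 ± 0.09 (limma, adjusted p = 0.119), on its probe set with an x in the suffix. With array group as a block the higher members fell out of that count, which was then 0 members higher and 1 lower (12.5% of all genes). Pold1 was then at 0.11, Mcm5 went from 0.16 to 0.004, Pole from 0.15 to 0.04 and Rpa1 from 0.17 to -0.03. The lower member was Pcna (-0.15 ± 0.06), which was not called (limma, adjusted p = 0.267). For p130 loss over all backgrounds 0.0157% of genes were called and 3 members reached an unadjusted p under 0.05 (10.1% of all genes), led by Rfc1 at 0.23 ± 0.08 (limma, adjusted p = 0.402). With the block Rfc1 was at 0.10 ± 0.09 and 0 members did so. All 46 confidence intervals lay within 1.5-fold in both.

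The genotype contrasts rest on fewer arrays and also called 0 members each. Rb1 loss with p107 and p130 absent (triple knockout, 6 arrays, against p107;p130 DKO, 6) called 0.377% of all genes. The members at an unadjusted p under 0.05 (3 of 46, beside 6.02% of genes) were Rrm2 at 0.28 ± 0.12, Prim1 at 0.20 ± 0.09 and Rfc1 at 0.29 ± 0.13 (limma, adjusted p = 0.724, 0.751 and 0.751). On its second probe set Rrm2 gave 0.43 ± 0.08 in this contrast (limma, adjusted p = 0.00549 over probe sets), and on probe set 3 it gave 0.36 ± 0.09, which was not called (adjusted p = 0.107) but was called with the array group block (0.37, adjusted p = 0.0377). Rb1 loss with p130 absent (Rb1;p130 DKO, 9 arrays, against p130 KO, 3) called 0.118% of genes, with Pola1 at 0.44 ± 0.21 and Prim1 at 0.22 ± 0.11 the 2 members at an unadjusted p under 0.05 (5.3% of genes). With array group as a block Prim1 was at 0.12 ± 0.07 in the first of these contrasts, no longer at an unadjusted p under 0.05, and at 0.19 ± 0.07 in the second. In the first, 3 members were then higher (Rrm2, Rfc1 and Rpa2) and 3 lower (Orc3, Rfc4 and Dut) at an unadjusted p under 0.05, beside 10.4% of genes.

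p107 loss with p130 absent called 0.0236% of genes and 0 members reached an unadjusted p under 0.05 (4.42% of genes). p107 loss with Rb1 and p130 absent also called 0.0236%, with Pold1 (0.33 ± 0.15) the 1 member at an unadjusted p under 0.05 (5.44% of genes). With the block Pold1 was at 0.19 ± 0.13, and the members at an unadjusted p under 0.05 were 2 lower ones, Pcna (-0.24 ± 0.08) and Orc2 (-0.20 ± 0.09), beside 8.88% of genes. p130 loss with Rb1 and p107 absent (triple knockout against Rb1;p107 DKO) called 0.00786%. There the members' median was -0.06 and that of all genes 0.03, with 6 members lower (Rpa1, Rfc2, Pcna, Orc1, Mcm5 and Cdc6, from -0.31 to -0.19) and Rfc1 higher (0.38 ± 0.14) at an unadjusted p under 0.05, beside 7.47% of genes, and an adjusted p of 0.660 or more (limma) for each. Of the 5 Rb1;p107 DKO arrays 4 were in array group 2, against 2 of the 6 triple knockouts, and with array group as a block the values for those 6 members were -0.18, -0.14, -0.13, -0.17, -0.08 and -0.14, and that of Rfc1 was 0.23 ± 0.14. None of these 7 then had an unadjusted p under 0.05, and Mcm6 (-0.31 ± 0.14) was the 1 member that did, beside 3.25% of genes. 

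Loss of the whole family against wild type (6 arrays against 2) called 0.0786% of genes, with Prim1 at 0.27 ± 0.13 and Rfc1 at 0.39 ± 0.19 the 2 members at an unadjusted p under 0.05 (4.57% of genes). With the block they were at 0.18 ± 0.09 and 0.32 ± 0.17 and no longer among them, and the 3 members that were (6.39% of genes) were Mcm4 (0.46 ± 0.16), Rpa2 (0.34 ± 0.13) and Rrm2 (0.23 ± 0.10). The interaction, which asks whether Rb1 loss acts differently with p107 present or absent in livers lacking p130, called 0% of genes and 0 members (1.64% of genes, and 0 members, at an unadjusted p under 0.05). Confidence intervals of 35 and 36 members lay within 1.5-fold in these comparisons, and of all 46 within 2-fold.

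**Figure D4:**
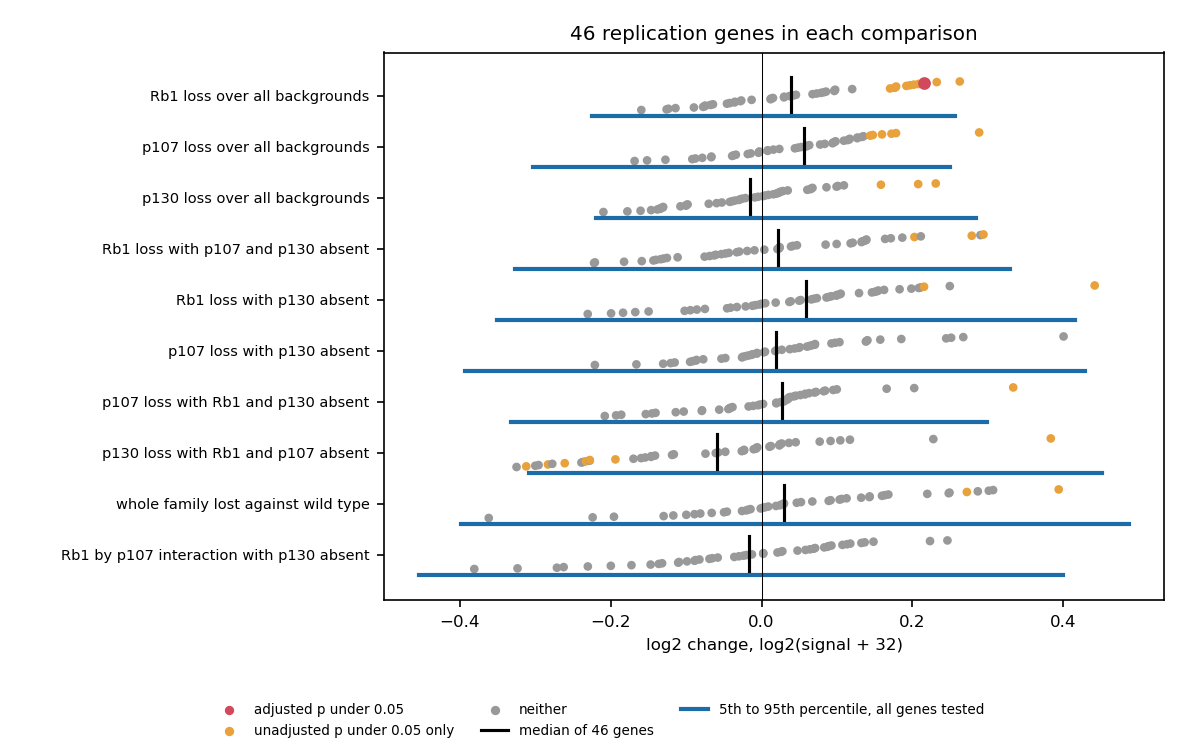
Log2 change of the 46 replication genes (points, one per gene) in each of the 10 comparisons, with the median as a black line and the range from the 5th to the 95th percentile of all genes tested in blue. The members' medians lie between -0.06 and 0.06, and a single point, Prim1 on Rb1 loss over all backgrounds, passes the adjusted threshold.

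Further genes of replication, from a separate list of 42 of which 39 could be tested, gave 3 higher and 0 lower on Rb1 loss over all backgrounds, where 1.75% of all genes were called higher. These were Clspn, a checkpoint adaptor at the fork (0.41 ± 0.09, limma, adjusted p = 0.00675), Fbxo5, an inhibitor of the anaphase-promoting complex (0.51 ± 0.11, adjusted p = 0.00758), and Uhrf1, which directs maintenance DNA methylation (0.28 ± 0.08, adjusted p = 0.0483). Supt16, a histone chaperone subunit, followed at 0.24 ± 0.07 (adjusted p = 0.0568). The list's median change was 0.04, and 25 of 39 lay above 0.

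Of 9 mitotic markers tested, 1 was called in the same comparison (2.26% of all genes). This was Cdk1, the kinase that drives entry into mitosis, which rose by 0.22 on the log2 scale (± 0.04, limma, adjusted p = 0.00133). Of the 9, 3 had an unadjusted p under 0.05 (11.3% of all genes), and the list's median was 0.11. The summed signal of the 9 ran from 62375 to 101943 without Rb1 (median 72129) and from 55674 to 86746 with it (median 64659). The part of a changed share of cycling cells in the replication gene values was not tested. Of 6 red cell precursor genes tested, Epor, the erythropoietin receptor, fell by 0.83 on the log2 scale (limma, adjusted p = 1.55e-07) and the other 5 had values from 0.06 to 0.10, not called. None of the hepatocyte, macrophage, megakaryocyte, neutrophil, stem cell, endothelial or stellate markers tested was called.

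The median standard deviation of the 46 genes over the 34 arrays was 0.20 log2 units, against 0.31 for all genes tested. The 2 sets were not matched for signal, on which this spread can depend. Mean signals of the members ran from 394.9 (Gins3) to 33294 (Pcna), while a gene needed 100 on 2 arrays to be tested. The share of a member's variance lying between genotypes had a median of 21.9% (22.3% for all genes), and that between array groups 31.8% (21.2%). Such shares grow with the number of groups even for random labels, and there were more genotypes than array groups. The genotype and array group shares are therefore not comparable with each other. The share that random labels would give was not computed, so the genotype share alone does not show an effect of genotype. After genotype means were removed, the median correlation between members was r = 0.15 over 1035 pairs, which share the arrays and their scaling. It was 0.01 between genes taken at regular steps from all those tested, which were not matched for signal either. With array group removed as well, the value between members was 0.22. Rpa1 followed the mean of the other members most closely (r = 0.80 over 34 arrays), followed by Prim2 (0.80) and Rfc4 (0.79), and 10 members, led by Orc4 (-0.46), had a value below 0. As a set, the members were lowest on p130 KO replicate 2, with 6 of 46 above their own means (median -0.27), and highest on Rb1;p107 DKO replicates 5 and 4, with 37 and 38 above (0.25 and 0.19). The lowest and the highest array thus lay in genotypes with and without Rb1, and the median over arrays was -0.05, 0.06 and -0.01 in array groups 1, 2 and 3.

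**Figure D5:**
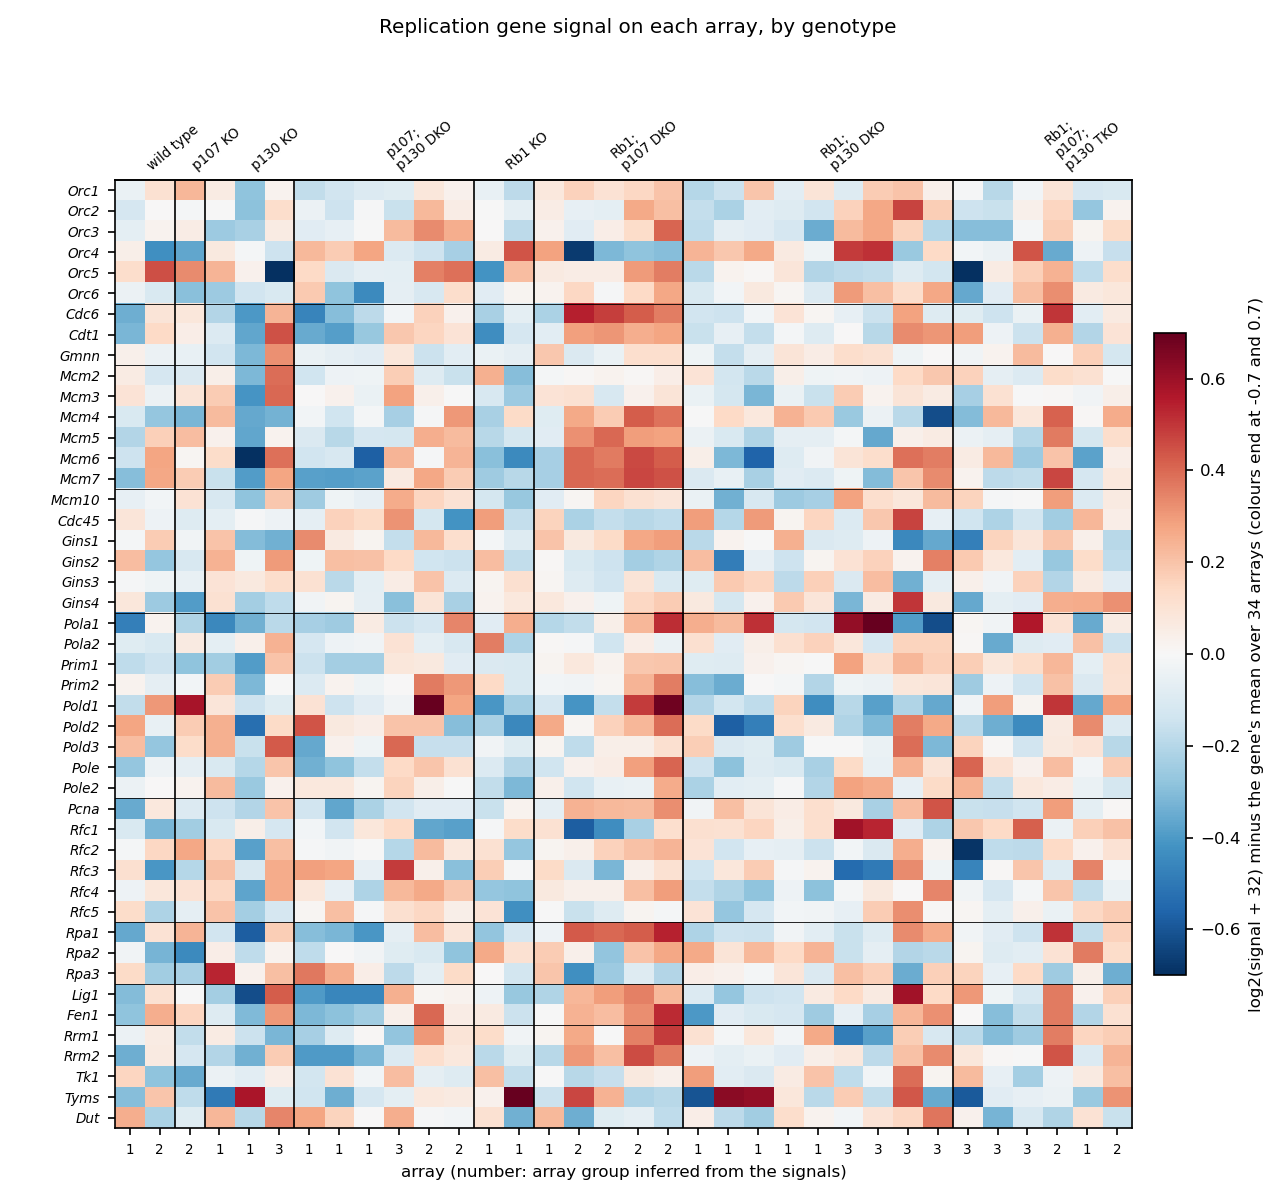
Log2(signal + 32) of each member (rows, by role) on each array (columns, by genotype, numbered by array group), minus the gene's mean over the 34 arrays. Some columns are high or low across many rows: 37 and 38 of 46 members lie above their mean on Rb1;p107 DKO replicates 5 and 4, and 6 of 46 on p130 KO replicate 2.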

How the data were processed

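The deposited values are intensities: per the submitters' processing notes, the authors computed one MAS5 signal per probe set on a linear scale in GCOS 1.4. Trimmed means (2%) of 495.4 to 497.7 per array were brought to 500 here, and values were taken as log2(signal + 32). The number of arrays limits the precision. Of 45037 probe sets, 34945 carried 1 symbol in GEO's platform annotation, updated through RefSeq gene IDs, 932 several and 9160 none; only the first kind was used, and each of 18193 genes was represented by its brightest probe set. limma 3.58.1 (R 4.3.3; lmFit, contrasts.fit, eBayes with a mean trend, two-sided) was fitted over all genes tested, with Benjamini-Hochberg adjustment within each of 10 comparisons, and again over every probe set. The scripts were tested on simulated data. The members, their roles and the other lists were chosen with earlier results of these data known. Values in full were given for members called and for the 2 with the largest statistic per role on Rb1 loss. Array groups came from average-linkage clustering, cut at a set number of 3, of log2 differences between the 2 brightest probe sets of 2971 genes. Alternatives were pseudocounts of 1 and 100, other filters, another normalization, averaged probe sets, robust and weighted fits, sex, array group or replicate number as terms, and leaving out each array.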

Additional observations from a re-analysis of the deposited data

Results flagged for a closer look

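Single arrays stood apart from the rest of their genotype in 7 of 76 tests of the named members and of the members' median, in genotypes of 5 to 9 arrays, where chance alone gives about 1 in 20. On Rb1;p107 DKO replicate 1, the only array of that genotype in array group 1, the lowest values were Cdc6 at 5919 (the next array 8872), Pcna at 31588 (next 38449), Rpa1 at 13862 (next 18788) and Lig1 at 7032 (next 9536). Mcm3 was highest at 10781 on p107;p130 DKO replicate 4 (next 9105), Lig1 at 12283 on Rb1;p130 DKO replicate 8 (next 9003), and Cdc6 at 9771 on triple knockout replicate 4 (next 7204).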

How the results depend on the processing

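The count of 1 replication gene called on Rb1 loss over all backgrounds (2.26% of all genes) became 3 with quantile normalization (Pcna, Rrm2, Prim1, beside 2.49% of all genes), 2 with averaged probe sets (Rrm2, Rpa2, beside 2.18%), 5 with array weights (Pcna, Rrm2, Lig1, Prim1, Rpa2, beside 3.97%), 5 with the array group block (4.4%), 3 within array group 1 (1.57%), 0 within array group 3 (0.0314%), and 2 without Rb1;p130 DKO arrays 8 and 9 (Prim1, Rpa2, beside 2.74%). It ran from 0 to 2 on leaving out each array. Alternatives chosen after seeing the data gave 9 with array group block and quantile normalization together (4.46%) and 4 with the block and sex (3.21%). Deviations of same-numbered replicates correlated at a median r = 0.07 over 67 pairs (-0.38 to 0.50). Those of replicates with other numbers did so at -0.009 over 380 pairs (-0.50 to 0.44). Whether same-numbered replicates belong together is not given by the labels and was not settled by these values. With the replicate number as a block the count stayed 1 (3.14% of all genes), but the gene was Rpa2, and Prim1 had 0.16 (limma, adjusted p = 0.102). Prim1 was called in 13 of 15 alternatives that used all array groups and its brightest or averaged probe sets, the exceptions being averaged probe sets and the replicate block, and it was not called within any 1 array group. Quantile normalization called 1 member on p107 loss (Pcna, -0.10, beside 1.59% of all genes), and 1 (Rrm2) was called on Rb1 loss with p107 and p130 absent both with averaged probe sets (0.464%) and with block and quantile normalization together (1.01%).

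Among the members with values given in full, those not called changed sign on Rb1 loss as follows. Orc4 was -0.0017 with array weights and -0.050 within array group 2. Within array group 3, which has 2 arrays with Rb1, Cdc6 was -0.159, Gmnn -0.141, Pcna -0.048, Rpa2 -0.075, Rpa1 -0.054, Lig1 -0.192 and Fen1 -0.216. Fen1 was -0.058 with the replicate block and -0.0014 without arrays 8 and 9, and ran from -0.0050 (without wild type replicate 1) to 0.080 on leaving out each array. Mcm3 was 0.026 with averaged probe sets and 0.080, 0.012 and 0.140 on probe sets 2, 3 and 5 by brightness, Rfc1 was -0.043 on probe set 3 and Dut 0.038 on probe set 2. The cause of these changes was not tested. Fits on only the groups compared were run for the 7 genotype contrasts.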
